A study of Mus musculus with 10 samples.

Results

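The genes described here are those that STAT5 is known to switch on as brakes on itself or in support of cell survival, together with the genes of STAT5 itself. They are the 10 rows, of 29955 in the table of counts per gene, whose symbols are Cish, Socs1, Socs2, Socs3, Pim1, Pim2, Osm, Tnfrsf13b, Stat5a and Stat5b. All 10 were found, and all 10 passed the filter on low counts that left 12282 genes for testing. The cells are a mouse acute lymphoblastic leukaemia line driven by BCR-ABL1 p185, the fusion kinase of the Philadelphia chromosome, and dasatinib is an inhibitor of ABL and SRC family kinases. RNA was sequenced from 10 libraries. The dasatinib 16x group holds 3 libraries from lines selected by outgrowth in drug at the 16x step of an escalation set by the IC90, and the dasatinib 1x group holds 3 from lines selected at the 1x step. A single library came from a line carried with the solvent DMSO to 16x, another from one carried with DMSO to 1x, and 2 from the parental line. All groups carry the same fusion and stem from 1 cell line. Whether the cells were in drug when RNA was taken is not stated. The labels call the dasatinib libraries of a group biological replicates, and the parental ones replicates, without saying how their cultures were kept apart. Counts of 2 dasatinib libraries of a group differed by more than counting noise, with a chi-square per degree of freedom of 3.14 to 16.9, against 1.91 between the parental libraries. A p-value reflects the spread between these libraries.

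STAT5 is a transcription factor that cytokine receptors activate through JAK kinases and that BCR-ABL1 activates without a cytokine. Active STAT5 binds a palindrome in DNA and raises CIS and SOCS proteins, which bind receptors and kinases and dampen the pathway, and PIM kinases, which favour growth and survival. Precursor B cells normally receive this signal from the interleukin 7 receptor. The phosphorylation of STAT5 was not measured in the files used here, so the values below are transcript levels and not STAT5 activity.

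The promoter windows of 300 bases around each RefSeq start were searched for the STAT palindrome TTCNNNGAA, which reads the same on both strands. The RefSeq table of GRCm38.p6 held 11 windows of 8 of the 10 genes, and those of Socs2 and Osm were not used here. Of the 8 genes, 2 held the letters, Cish and Socs3. Of all 32851 RefSeq windows, 8.30% held the palindrome and 0.457% held at least 2, as Cish does. The stretches are shown because all dasatinib 16x libraries lay above the drug-free ones for Cish and below them for Socs3. The palindrome is in capitals.
Cish, chr9:107296654-107296683, plus strand: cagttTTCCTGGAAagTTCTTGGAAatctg
Socs3, chr11:117969501-117969530, minus strand: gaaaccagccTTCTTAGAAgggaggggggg
The 2 palindromes of Cish begin at the RefSeq start and 11 bases after it, in an exon of GENCODE transcript Cish-201 and in its UTR. That of Socs3 begins at position -154 from the RefSeq start, inside GENCODE transcript Socs3-202 and in none of its exons.

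Socs1, which had the largest log2 change of the 10 between dasatinib 16x and dasatinib 1x, had no TTCNNNGAA in its window. It was the only one of the 8 genes with 2 copies of GAAA spaced by 2 bases of any kind, the core of an interferon-stimulated response element, searched on both strands and present in 3.44% of all windows. The 250 bases before its RefSeq start are shown with the 2 overlapping matches, which begin at positions -83 and -77 from the start, in capitals.
Socs1, chr16:10785537-10785786, minus strand: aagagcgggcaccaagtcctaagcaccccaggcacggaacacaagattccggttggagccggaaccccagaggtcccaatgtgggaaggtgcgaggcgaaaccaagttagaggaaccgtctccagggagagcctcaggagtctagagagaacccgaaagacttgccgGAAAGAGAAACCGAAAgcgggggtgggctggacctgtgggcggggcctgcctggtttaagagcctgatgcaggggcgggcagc
A match is a description of the letters in a window and not evidence of binding. The counts were made on another build, mm9, and these coordinates were not mixed with them.

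Levels are CPM, read counts scaled to library size by the TMM method, means are given ± SD, and log2 changes ± SE. Library totals lay between 29049760 and 45813092 counts, and the lowest count of any of the 10 genes was 350, for Socs3 in dasatinib 1x A. Of 8 markers of B-lineage precursors 7 averaged at least 1 CPM, and they summed to 3068 to 3361 CPM in dasatinib 16x, 3263 to 3407 CPM in dasatinib 1x and 3344 to 3836 CPM in the drug-free libraries. Ebf1, a defining factor of these cells, was the exception at 0.0955 to 0.717 CPM. The 5 T cell markers summed to at most 0.0633 CPM in any library and the 4 stromal ones to at most 0.0682 CPM. Of 5 myeloid markers only Lyz2 averaged over 1 CPM, and the list summed to 3.63 to 8.22 CPM in dasatinib 16x, 6.25 to 6.74 CPM in dasatinib 1x and 3.78 to 5.96 CPM in the drug-free libraries. Of 5 erythroid markers 3 were in the table, and their sum, nearly all from Hbb-b1, was 16.2 to 26.5 CPM in dasatinib 16x, 3.66 to 4.25 CPM in dasatinib 1x and 4.04 to 34.5 CPM in the drug-free libraries. The part of these in the results was not tested.

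The comparison of dasatinib 16x (n = 3) with the 4 drug-free libraries (2 parental, DMSO 1x and DMSO 16x) asked how these transcripts stood at the highest dose step sequenced. By edgeR's quasi-likelihood test, adjusted over all tested genes, 4 of the 10 genes were higher at an adjusted p under 0.05 and 0 were lower. The 4 were the feedback genes Cish and Socs1, the kinase Pim1 and the cytokine Osm. Over all tested genes 7.79% were called higher and 8.33% lower. Without any overlap, 5 of the 10 lay above all drug-free libraries (Cish, Socs1, Pim1, Osm and Stat5b) and 1 below (Socs3), against 14.3% and 14% of tested genes. In RNA from whole cultures, a change in all cells and a change in the share of cells that express a gene cannot be told apart. The median log2 change of the 10 was 0.19, against a median of -0.00 over all tested genes.

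**Figure D1:**
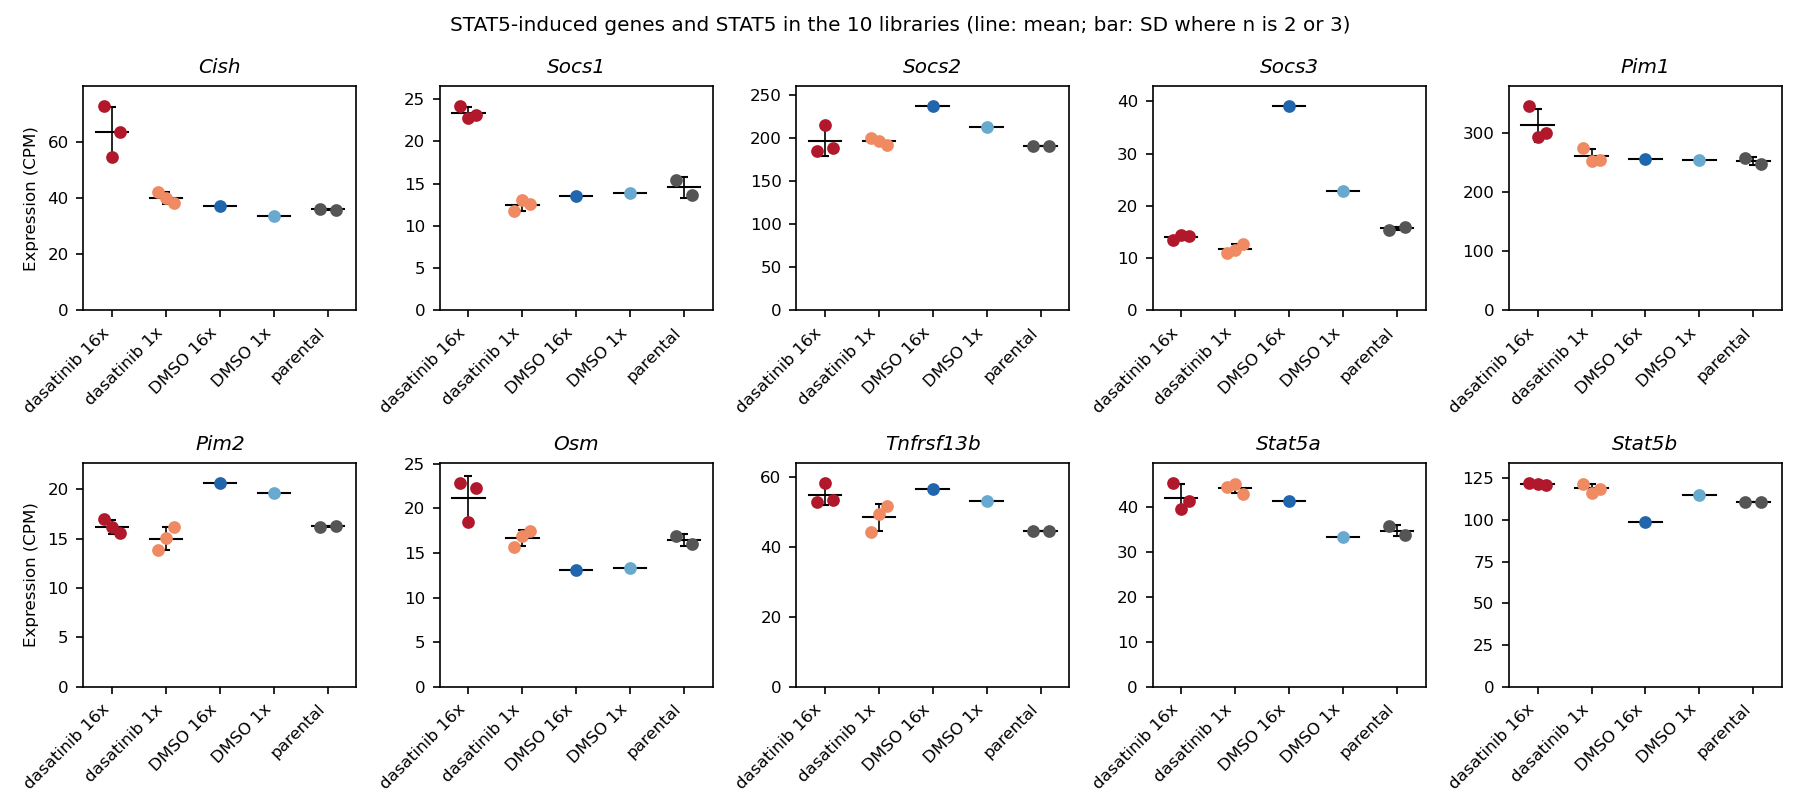
Expression of the 10 genes in CPM on linear axes from 0, with 1 panel per gene and 1 point per library. Groups run from dasatinib 16x on the left to parental on the right, horizontal lines are group means and bars are SD where a group has 2 or 3 libraries. Cish and Socs1 are highest in all 3 dasatinib 16x libraries, at 54.7 to 72.6 and 22.8 to 24.1 CPM, while Socs3 is highest in DMSO 16x at 39.1 CPM.

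Cish encodes CIS, which blocks STAT5 docking on cytokine receptors. It stood at 72.6, 54.7 and 63.5 CPM in dasatinib 16x libraries A, B and C and at 42.2, 39.8 and 38.1 CPM in dasatinib 1x A, B and C. In the drug-free libraries it was at 37.1 CPM in DMSO 16x, 33.5 CPM in DMSO 1x, and 36.0 and 35.9 CPM in parental A and B. All 6 dasatinib libraries lay above all 4 drug-free ones, and all 3 at 16x above all 3 at 1x. Against drug-free, Cish rose at 16x by a log2 change of 0.84 ± 0.08 (adjusted p = 0.000473). The range over 18 alternatives was 0.73 to 0.93, and it was called in each. Against dasatinib 1x it rose by 0.67 ± 0.09 (adjusted p = 0.0094). That call was lost when dasatinib 1x B (adjusted p = 0.053) or dasatinib 1x C (0.0685) was left out. The order of the groups was dasatinib 16x, dasatinib 1x, DMSO 16x, parental and DMSO 1x, and the single DMSO libraries lay on either side of the parental ones. Cish shares exon bases with Gm17040 and Gm17041 on the opposite strand, whose reads cannot be told apart here because the strand setting of the counting is not given in the sources used here.

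Socs1 encodes a direct inhibitor of JAK kinases. It stood at 24.1, 22.8 and 23.2 CPM in dasatinib 16x A, B and C and at 11.7, 13.1 and 12.6 CPM in dasatinib 1x A, B and C. In DMSO 16x it was at 13.5 CPM, in DMSO 1x at 13.9 CPM and in parental A and B at 15.4 and 13.7 CPM. The 16x libraries lay above all others without overlap, and the 1x libraries lay below all 4 drug-free ones. Socs1 rose at 16x against drug-free by 0.73 ± 0.07 (adjusted p = 0.000287) and against 1x by 0.91 ± 0.07 (adjusted p = 0.00294). It was called in all 18 alternatives of the first comparison and all 17 of the second. The lower level at 1x against drug-free, a log2 change of -0.18 ± 0.07, did not pass (adjusted p = 0.193).

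Socs2, which encodes a brake on growth hormone signalling, showed no such pattern. It stood at 185, 215 and 188 CPM in dasatinib 16x A, B and C and at 199, 197 and 192 CPM in dasatinib 1x A, B and C. In DMSO 16x it was at 236 CPM, in DMSO 1x at 213 CPM and in parental A and B at 189.9 and 190.0 CPM. The dasatinib libraries overlapped each other and the drug-free ones, and DMSO 16x was the highest library. The change at 16x was -0.08 ± 0.08 against drug-free (adjusted p = 0.54), and against 1x it was 0.00 ± 0.09. With the DMSO lines as the only reference it was -0.20 and passed (adjusted p = 0.0219), while with parental as the only reference it was 0.043 and did not.

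Socs3, which encodes an inhibitor of JAKs bound to gp130-type receptors, stood at 13.4, 14.5 and 14.3 CPM in dasatinib 16x A, B and C and at 11.1, 11.6 and 12.8 CPM in dasatinib 1x A, B and C. It was at 39.1 CPM in DMSO 16x, 22.8 CPM in DMSO 1x, and 15.5 and 16.0 CPM in parental A and B. All 6 dasatinib libraries lay below all 4 drug-free ones, whose own spread was wide (23.3 ± 11 CPM, n = 4). Its log2 change of -0.73 ± 0.29 at 16x against drug-free did not pass (adjusted p = 0.12), and neither did that of -0.98 ± 0.29 at 1x (adjusted p = 0.13). By DESeq2 both passed, with adjusted p = 0.0446 at 16x and 0.0128 at 1x. Without the DMSO 16x library the change at 1x was -0.61 and passed (adjusted p = 0.0328). With parental as the only reference the change was -0.16 at 16x (adjusted p = 0.148) and -0.41 at 1x (adjusted p = 0.0104). With the 2 DMSO lines as the only reference it was -1.09 at 16x (adjusted p = 7.47e-07) and -1.33 at 1x (adjusted p = 1.56e-07). At 16x against 1x the change of 0.25 ± 0.31 did not pass (adjusted p = 0.78), though it passed in 1 of 17 alternatives.

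Pim1, a survival kinase, was the most abundant of the 10 per length, at a mean over the 10 libraries of 81.3 CPM per kb of exon, against 5.96 CPM per kb for its paralog Pim2. Pim1 stood at 344, 292 and 300 CPM in dasatinib 16x A, B and C and at 274, 253 and 254 CPM in dasatinib 1x A, B and C. In DMSO 16x it was at 255 CPM, in DMSO 1x at 254 CPM and in parental A and B at 258 and 247 CPM. The 16x libraries lay above all others, while the 1x and drug-free ones overlapped. Pim1 rose at 16x against drug-free by 0.30 ± 0.06 (adjusted p = 0.00814), in all 18 alternatives. Against 1x the change of 0.26 ± 0.06 did not pass (adjusted p = 0.0644), though it passed in 5 of 17 alternatives, among them without DMSO 16x (adjusted p = 0.0215). Pim1 shares exon bases with Gm26885 on the opposite strand.

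Pim2 stood at 16.9, 16.2 and 15.5 CPM in dasatinib 16x A, B and C and at 13.9, 15.04 and 16.1 CPM in dasatinib 1x A, B and C. It was at 20.6 CPM in DMSO 16x, 19.6 CPM in DMSO 1x, and 16.2 and 16.3 CPM in parental A and B. The DMSO lines were highest and the 16x libraries overlapped the parental ones. The change at 16x against drug-free was -0.17 ± 0.10 (adjusted p = 0.294), and with parental as the only reference it was -0.00. With the DMSO lines as the only reference it was -0.31 and passed (adjusted p = 0.00835).

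Osm encodes oncostatin M, a cytokine of the interleukin 6 family and a known STAT5 target. It stood at 22.8, 18.5 and 22.3 CPM in dasatinib 16x A, B and C and at 15.7, 16.9 and 17.5 CPM in dasatinib 1x A, B and C. In DMSO 16x it was at 13.1 CPM, in DMSO 1x at 13.3 CPM and in parental A and B at 16.9 and 16.0 CPM. The 16x libraries lay above all others, the 1x and parental libraries overlapped, and the DMSO lines were lowest. Osm rose at 16x against drug-free by 0.52 ± 0.11 (adjusted p = 0.0135). The call was lost when dasatinib 16x A or dasatinib 16x C was left out (adjusted p = 0.0552 each). Against 1x the change of 0.34 ± 0.12 did not pass (adjusted p = 0.181), though it passed in 2 of 17 alternatives. Of the 2 receptor chains that oncostatin M uses in the mouse, Osmr had 0 counts in all 10 libraries and Il6st stood at 0.221 to 2.94 CPM.

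Tnfrsf13b encodes TACI, a receptor of B cells for BAFF and APRIL. It stood at 52.8, 58.3 and 53.4 CPM in dasatinib 16x A, B and C and at 44.3, 49.3 and 51.7 CPM in dasatinib 1x A, B and C. In DMSO 16x it was at 56.6 CPM, in DMSO 1x at 53.0 CPM and in parental A and B at 44.6 and 44.5 CPM. The 16x libraries lay above all 1x and parental ones and overlapped the DMSO lines. The change at 16x was 0.14 ± 0.09 against drug-free (adjusted p = 0.337). With parental as the only reference it was 0.30 and passed (adjusted p = 0.00604), while with the DMSO lines as the only reference it was 0.00 (adjusted p = 0.992).

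Stat5a and Stat5b encode the STAT5 proteins. They are close paralogs, so reads may be split between them, and Stat5a shares exon bases with Stat3 on the opposite strand. Stat5a stood at 45.3, 39.5 and 41.2 CPM in dasatinib 16x A, B and C and at 44.5, 45.1 and 42.9 CPM in dasatinib 1x A, B and C. In DMSO 16x it was at 41.3 CPM, in DMSO 1x at 33.3 CPM and in parental A and B at 35.6 and 33.8 CPM. The dasatinib libraries lay above DMSO 1x and parental, and those at 16x overlapped DMSO 16x. The change against drug-free was 0.22 ± 0.08 at 16x (adjusted p = 0.0795) and 0.29 ± 0.08 at 1x (adjusted p = 0.0922). Both passed without the DMSO 16x library (adjusted p = 0.00435 at 16x and 0.00581 at 1x). At 16x it also passed with parental (0.00671) or the DMSO lines (0.0369) as the only reference.

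Stat5b stood at 122, 122 and 121 CPM in dasatinib 16x A, B and C and at 122, 116 and 119 CPM in dasatinib 1x A, B and C. In DMSO 16x it was at 98.6 CPM, in DMSO 1x at 115 CPM and in parental A and B at 111 CPM each. All 6 dasatinib libraries lay above all 4 drug-free ones, and both dose steps overlapped. The change against drug-free was 0.16 ± 0.05 at 16x (adjusted p = 0.0511) and 0.13 ± 0.05 at 1x (adjusted p = 0.199). At 16x it passed without DMSO 16x (adjusted p = 0.0263) and without DMSO 1x (0.0449), as it did with parental (0.0115) or the DMSO lines (0.000736) as the only reference. Per length, Stat5b averaged 20.9 CPM per kb of exon over the 10 libraries and Stat5a 5.64 CPM per kb.

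**Figure D2:**
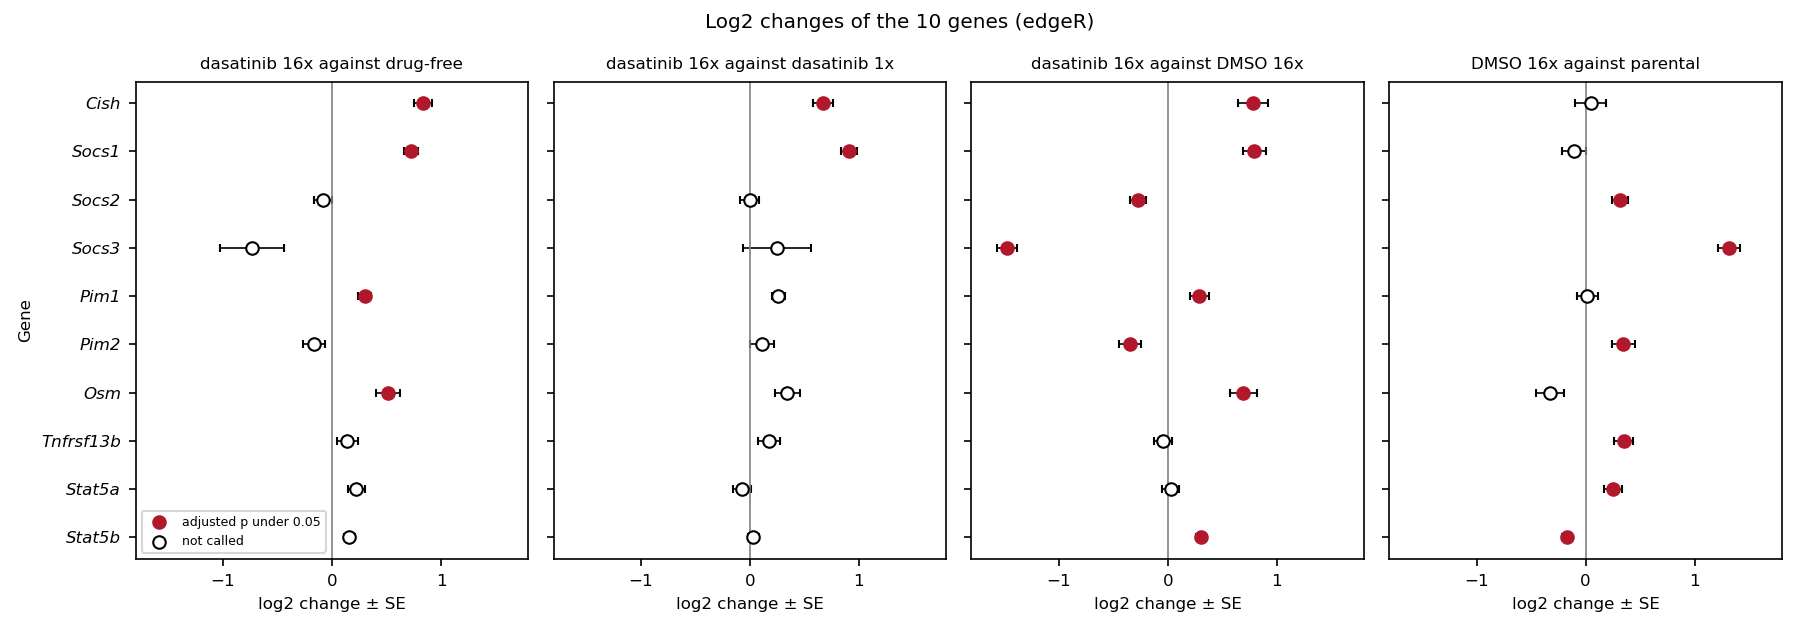
Log2 changes of the 10 genes (points) with SE (bars) in 4 comparisons, filled where the adjusted p was under 0.05. In the leftmost panel, dasatinib 16x against drug-free, Cish, Socs1, Pim1 and Osm are filled and lie to the right, between 0.30 and 0.84. In the rightmost, DMSO 16x against parental, Socs3 lies farthest right at 1.31.

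Between the dose steps, dasatinib 16x against dasatinib 1x (n = 3 each), 2 of the 10 genes were called higher and 0 lower, namely Socs1 and Cish. Over all tested genes 1.21% were called higher and 0.928% lower, or 2.13% in either direction. The median log2 change was 0.21 for the 10 genes and 0.00 for all tested genes. The fit of 3 classes behind these values took its spread from the drug-free libraries too. With only the libraries of the 2 classes, Pim1 and Osm were also called (adjusted p = 0.0462 and 0.0338), among 1222 calls over all tested genes. The fit of 5 groups also called Socs3, Pim1 and Osm, among 1669 calls. Without any overlap, 6 of the 10 were higher in all 16x libraries than in all 1x libraries, against 15.1% of tested genes. These 6 were Socs1, Cish, Socs3, Pim1, Osm and Tnfrsf13b. The SD of Cish was 8.96 CPM at 16x and 2.03 CPM at 1x, with library A highest at 16x. In 5 of the 10 genes (Socs1, Cish, Pim1, Osm and Stat5a) library A was highest and B lowest of the 16x libraries, an order that 19.6% of tested genes had.

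At the first dose step, dasatinib 1x (n = 3) against drug-free, 0 of the 10 genes were called by edgeR, against 0.822% of all tested genes called higher and 1.14% lower, or 1.96% in either direction. Of the 12282 tested genes 2432 had an unadjusted p under 0.05, and among the 10 these were Socs1, Socs3, Pim2, Stat5a and Stat5b. DESeq2 and the fits with parental or without DMSO 16x each called Socs3 and Stat5a, as did the fit with the DMSO lines as the only reference, which also called Socs2, Pim2, Osm and Stat5b. Without overlap, 3 genes lay above all drug-free libraries (Cish, Stat5a and Stat5b) and 3 below (Socs1, Socs3 and Pim2), against 12.5% and 11% of tested genes. The median log2 change of the 10 was 0.00, against -0.01 over all tested genes.

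The same dose step with and without drug was compared in a fit of the 5 groups, in which a lone DMSO library was assumed to vary like the replicated groups. For dasatinib 16x (n = 3) against DMSO 16x (n = 1), 5 of the 10 genes were called higher and 3 lower, against 18.9% and 16.8% of all tested genes, or 35.7% in either direction. Socs1 (log2 change 0.79 ± 0.10, adjusted p = 8.92e-05), Cish (0.78 ± 0.14, adjusted p = 0.00248), Osm (0.69 ± 0.13, adjusted p = 0.00101) and Stat5b (0.30 ± 0.04, adjusted p = 0.000157) rose whichever library other than DMSO 16x was left out. DMSO 16x itself could not be left out, because it is the whole reference here. Pim1 rose by 0.29 ± 0.09 (adjusted p = 0.0358), a call that was lost without dasatinib 1x B (0.058), dasatinib 1x C (0.0548), parental A (0.053) or parental B (0.0532). Socs3 fell by 1.48 on the log2 scale (SE 0.09, adjusted p = 2.45e-07), Pim2 by 0.35 (SE 0.10, adjusted p = 0.0159) and Socs2 by 0.27 (SE 0.07, adjusted p = 0.0137). Within the SOCS family, Cish and Socs1 rose and Socs2 and Socs3 fell against the same library. With parental as the only reference at 16x, Socs2 was at 0.043 and Socs3 at -0.16, and neither passed.

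For dasatinib 1x (n = 3) against DMSO 1x (n = 1), 1 of the 10 genes was called higher and 2 lower, against 6.86% and 6.66% of all tested genes. Stat5a rose by 0.41 ± 0.08 (adjusted p = 0.00557), and Socs3 fell by 0.95 on the log2 scale (SE 0.09, adjusted p = 7.18e-05). Both were called in all 13 alternatives. Pim2 fell by 0.39 (SE 0.10, adjusted p = 0.0226), a call lost without dasatinib 1x A (0.0616) and with DESeq2 (0.0753). Socs2 (0.0367) and Osm (0.0327) gained a call without dasatinib 16x B. Cish and Socs1 were not called, with log2 changes of 0.25 ± 0.14 (adjusted p = 0.301) and -0.15 ± 0.10 (adjusted p = 0.389).

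The DMSO lines were set against the parental line to show how far the genes moved in culture without drug. Both comparisons above share the DMSO libraries with these. For DMSO 1x (n = 1) against parental (n = 2), Socs3 alone was called, higher by 0.54 ± 0.10 (adjusted p = 0.0108), against 3.31% of all tested genes called higher and 2.87% lower, or 6.17% in either direction. The call was lost without parental A (0.0864) and without parental B (0.0794). Socs2 gained a call without dasatinib 16x B (0.0186).

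For DMSO 16x (n = 1) against parental (n = 2), 5 of the 10 genes were called higher and 1 lower, against 14.7% and 16.2% of all tested genes, or 30.9% in either direction. Socs3 rose by 1.31 ± 0.10 (adjusted p = 1.79e-06), in all 13 alternatives. Tnfrsf13b rose by 0.35 ± 0.09 (adjusted p = 0.00969), Socs2 by 0.31 ± 0.08 (adjusted p = 0.0103), Pim2 by 0.35 ± 0.11 (adjusted p = 0.0258) and Stat5a by 0.25 ± 0.08 (adjusted p = 0.0383), while Stat5b fell by 0.17 (SE 0.05, adjusted p = 0.0139). Each of these 5 calls was lost without a parental library, and those of Pim2, Stat5a and Stat5b also with DESeq2. Without parental B the adjusted p was 0.051 for Tnfrsf13b, 0.0502 for Socs2, 0.0903 for Pim2, 0.167 for Stat5a and 0.0692 for Stat5b, and without parental A it was 0.0963 for Pim2, 0.0693 for Stat5a and 0.0607 for Stat5b. Osm, at -0.33 ± 0.13 (adjusted p = 0.0807), passed without dasatinib 16x B (0.0257). Cish, Socs1 and Pim1 had log2 changes of 0.05, -0.11 and 0.02 and were not called.

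A comparison added after these values were seen set the change from 1x to 16x under dasatinib against that under DMSO, in the fit of 5 groups. It called 2 of the 10 genes higher and 1 lower, against 5.37% and 1.37% of all tested genes. Socs1 changed by 0.91 under dasatinib and by -0.04 under DMSO, a difference of 0.95 ± 0.14 (adjusted p = 0.00248), called in all 12 alternatives. Stat5b changed by 0.03 under dasatinib and by -0.22 under DMSO, a difference of 0.25 ± 0.06 (adjusted p = 0.0265). Socs3 changed by 0.25 under dasatinib and by 0.78 under DMSO, a difference of -0.53 ± 0.14 (adjusted p = 0.0392). The Stat5b call was lost with DESeq2 and without dasatinib 1x C (0.0649), parental A or parental B. The Socs3 call was lost with DESeq2 and without dasatinib 1x B (0.06), dasatinib 1x C (0.0812), parental A or parental B. For Cish the changes were 0.67 under dasatinib and 0.14 under DMSO, and their difference of 0.52 ± 0.19 did not pass (adjusted p = 0.171), except without dasatinib 16x B (0.00542). Stat5a, at a difference of -0.38 ± 0.11 (adjusted p = 0.0647), passed without dasatinib 16x A (0.00884), and Socs2, at -0.15 ± 0.10, without dasatinib 16x B (0.0198).

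**Figure D3:**
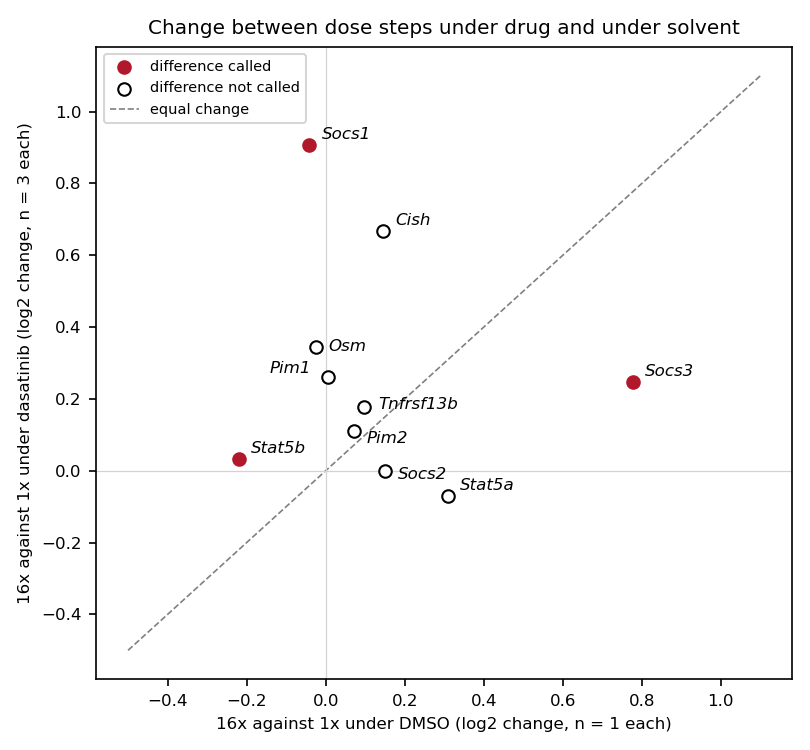
The log2 change between dose steps 1x and 16x under dasatinib (vertical axis, n = 3 each) against that under DMSO (horizontal axis, n = 1 each) for the 10 genes, filled where the difference had an adjusted p under 0.05, with a dashed line of equal change. Socs1 lies far above the line (0.91 under dasatinib, -0.04 under DMSO) and Socs3 below it (0.25 under dasatinib, 0.78 under DMSO).

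Of the 10 genes 5 lie on chromosome 11 (Socs3, Osm, Stat5a, Stat5b and Tnfrsf13b). At dasatinib 16x against drug-free, Socs3 had a log2 change of -0.73 and the others lay between 0.14 (Tnfrsf13b) and 0.52 (Osm). Only Osm was called. The 881 tested genes of that chromosome had a median log2 change of -0.02 at dasatinib 16x against drug-free, and 16.1% of them were called, the same share as over all tested genes.

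Other genes of the pathway were read from lists written from general knowledge. Of 13 tested genes that STAT5 is also known to induce, 2 rose at dasatinib 16x against drug-free and 1 fell, with a list median of 0.01. Of all tested genes 16.1% were called in this comparison, 7.79% higher and 8.33% lower, and the counts of this and the other lists are read beside those shares. Pim3, the third PIM kinase, rose by 0.26 ± 0.05 (adjusted p = 0.00956), to 59.2 ± 3.97 CPM at 16x (n = 3) against 49.4 ± 2.04 CPM in drug-free libraries (n = 4), and was called in 17 of 18 alternatives. Ccnd3, a D-type cyclin, rose by 0.12 ± 0.03 (adjusted p = 0.0287), and Mcl1, a survival protein of the BCL2 family, fell by 0.10 on the log2 scale (SE 0.03, adjusted p = 0.0254). The call of Ccnd3 was lost without any one of dasatinib 16x A, B or C, dasatinib 1x C, DMSO 1x or parental B (0.052 to 0.102), and that of Mcl1 without any one of dasatinib 16x A, B or C, DMSO 1x or parental A (0.0503 to 0.0844). Between 16x and 1x none of the 13 was called by edgeR. With DMSO 16x (n = 1) as the reference, the log2 changes of the 13 at dasatinib 16x went both ways. They ran from -2.35 (Ccnd1) to 2.39 (Gfi1), with a median of 0.08.

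Of 3 genes that are lower under active STAT5 in precursor B cells, 2 fell at 16x against drug-free, Rag1 and its partner Rag2 in antigen receptor recombination. The third, Bcl6, went the other way at 0.31 ± 0.16 and was not called by edgeR (adjusted p = 0.235). Against the single DMSO 16x library Bcl6 was higher as well, with a log2 change of 0.69 ± 0.22. Rag1 was at 8.66, 3.72 and 2.98 CPM in dasatinib 16x A, B and C and at 21.4, 16.6 and 17.7 CPM in dasatinib 1x A, B and C. It was at 20.3 CPM in DMSO 16x, 56.7 CPM in DMSO 1x, and 73.8 and 76.0 CPM in parental A and B. For DMSO 16x against parental, without drug, the log2 change was -1.88 ± 0.55 for Rag1 and -2.36 ± 0.87 for Rag2. All 3 dasatinib 16x libraries lay below all 4 drug-free ones. Rag1 fell by 3.46 on the log2 scale against drug-free (SE 0.53, adjusted p = 0.00358), in all 18 alternatives, and by 1.97 against DMSO 16x (SE 0.51, adjusted p = 0.0325). Rag2 was at 2.57 ± 2.12 CPM at 16x (n = 3) and 17.5 ± 9.05 CPM in drug-free libraries (n = 4), a log2 change of -2.76 ± 0.66 (adjusted p = 0.0227, called in 11 of 18 alternatives). Its call was lost when dasatinib 16x B (0.0738) or C (0.0719) was left out. In DMSO 16x Rag2 was at 4.64 CPM, and the change at dasatinib 16x against that library, -0.84 ± 0.79, did not pass (adjusted p = 0.483).

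The lists of other pathway parts held 2 genes called at 16x against drug-free. None of 4 JAK kinase genes and none of 11 phosphatases and other brakes was called by edgeR. Of 4 other SOCS genes 1 rose (Socs7, 0.18 ± 0.04, adjusted p = 0.0171, lost without dasatinib 16x B at 0.0567), and of 5 other STAT genes 1 rose (Stat2, 0.17 ± 0.05, adjusted p = 0.0433). The Stat2 call was lost without any one library other than DMSO 16x (0.0638 to 0.135). Of 3 tested genes of the oncostatin M receptor list none was called. With DMSO 16x (n = 1) as the reference, the 11 phosphatases and other brakes went both ways, with log2 changes from -0.20 (Ptpn6) to 0.77 (Sh2b3).

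Of 8 tested cytokine receptor chains that signal through STAT5, 3 rose at 16x against drug-free and 1 fell, with a list median of -0.13. The smallest rise called was that of Il2rg, at 0.16 ± 0.05 (adjusted p = 0.0439). Not called by edgeR were Il5ra (-1.46), Il3ra (-0.43), Il7r (-0.41) and Crlf2 (0.40). Il7r was at 132, 135 and 117 CPM in dasatinib 16x A, B and C and at 237, 214 and 213 CPM in dasatinib 1x A, B and C. In DMSO 16x it was at 78.4 CPM, in DMSO 1x at 167 CPM and in parental A and B at 217 and 219 CPM. Csf2rb2, the mouse beta chain for interleukin 3, was at 36.2, 40.8 and 40.8 CPM in dasatinib 16x A, B and C and at 23.0, 24.3 and 20.1 CPM in dasatinib 1x A, B and C. In DMSO 16x it was at 16.4 CPM, in DMSO 1x at 20.1 CPM and in parental A and B at 19.7 and 18.8 CPM. The 16x libraries lay above all others, as for Cish and Socs1. It rose by 1.06 ± 0.09 against drug-free (adjusted p = 0.000234) and by 0.81 ± 0.10 against 1x (adjusted p = 0.00624), in every alternative. Csf2rb, the common beta chain and a near-identical paralog with which reads may be shared, rose by 0.61 ± 0.07 against drug-free (adjusted p = 0.000779) and by 0.45 ± 0.07 against 1x (adjusted p = 0.0184). The second of these calls was lost without any one of dasatinib 1x A (0.0972), B (0.0876) or C (0.107), or dasatinib 16x B (0.0555) or C (0.0753). Csf2ra fell by 0.42 on the log2 scale (SE 0.11, adjusted p = 0.0337), a call lost without any one of dasatinib 16x B or C, dasatinib 1x A, B or C, or parental A (0.0515 to 0.12).

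Tnfrsf13c, the BAFF receptor and a relative of TACI, rose at 16x by 0.76 ± 0.08 against drug-free (adjusted p = 0.000635), in all 18 alternatives, while Tnfrsf13b itself was not called. Its levels were 56.5 ± 5.53 CPM at 16x (n = 3), 42.6 ± 4.40 CPM at 1x (n = 3) and 33.4 ± 1.43 CPM in drug-free libraries (n = 4). Against 1x the change was 0.41 ± 0.09 (adjusted p = 0.0489), a call lost without any one library other than dasatinib 16x A or DMSO 16x (0.0581 to 0.21). The ligand gene Tnfsf13 had 0 counts in all libraries and Tnfsf13b reached at most 0.0717 CPM.

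**Figure D4:**
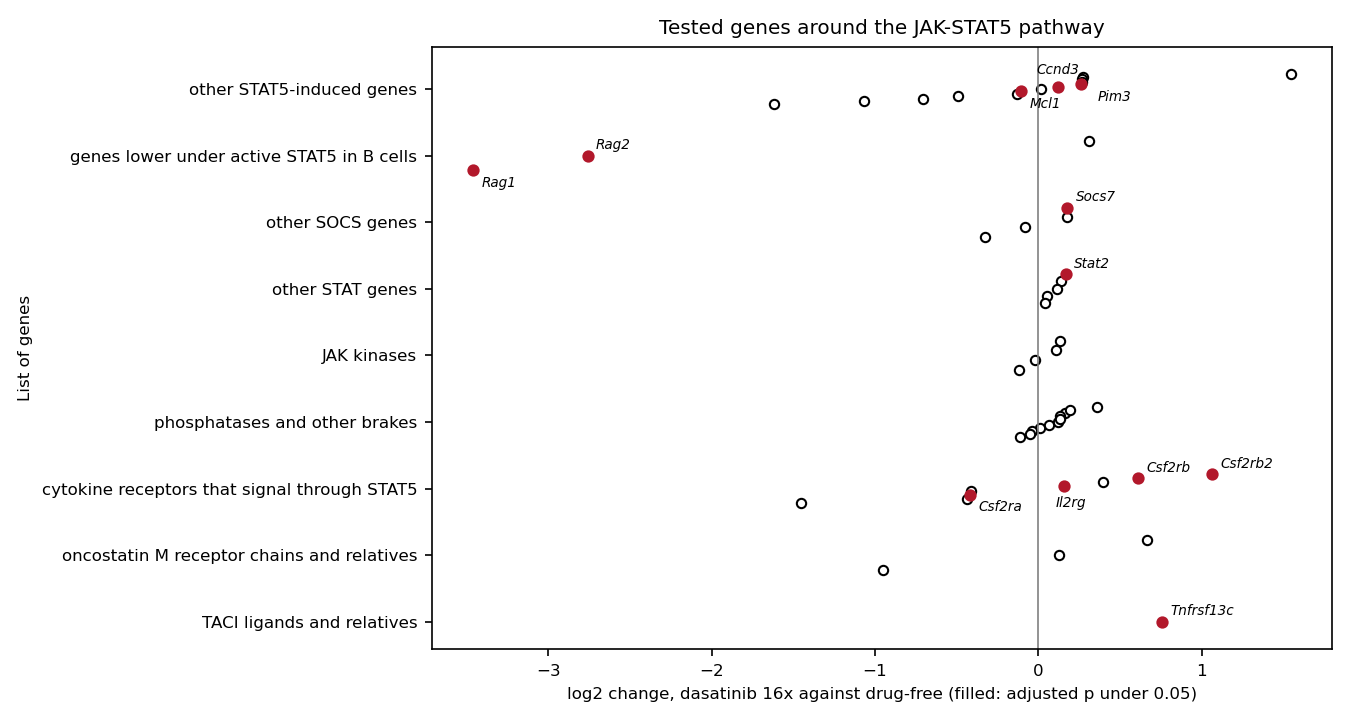
Log2 change at dasatinib 16x against drug-free (horizontal axis) of the tested genes of 9 lists around the JAK-STAT5 pathway (rows), 1 point per gene, filled and named where the adjusted p was under 0.05. Csf2rb2 (1.06), Tnfrsf13c (0.76) and Csf2rb (0.61) lie farthest right among the filled points and Rag1 farthest left (-3.46).

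Genes whose pattern over the 5 group means was most like that of Cish were ranked by the root mean square difference of centred log2 means, over 8481 genes at a mean of at least 5 CPM. They were Spp1 (0.07), Pik3r6 (0.10), Tnfrsf13c (0.10), Padi2 (0.11) and Csf2rb (0.11). Spp1, which encodes osteopontin, averaged 28.7 CPM at dasatinib 16x, 19.8 CPM at dasatinib 1x, 18.3 CPM in DMSO 16x, 16.7 CPM in DMSO 1x and 18.6 CPM in the parental line. The genes most like Socs2, which stood highest in DMSO 16x, were Eif4b, Was, Npm1, Gabarapl2 and Hnrnpa1, at differences of 0.01 to 0.02.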

How the data were processed

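RNA sequencing counts per gene of 10 libraries were analysed as the authors deposited them. Libraries were made with a TruSeq kit per the labels' protocols. Per the submitters' processing notes, the tools were CASAVA 1.7.0, Trimmomatic 0.33, TopHat2 2.0.12, BWA 0.7.10, SAMtools, HTSeq 0.6.1 and DESeq, with build mm9. The strand setting and the annotation are not given in the sources used here.

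Of 29955 genes 12282 passed filterByExpr at a minimum count of 10 and were tested, and they held 99.96 to 99.98% of each library's counts. CPM were computed on TMM-scaled totals. Tests used edgeR 4.0.16 in R 4.3.3, by its quasi-likelihood method with robust fitting, with Benjamini-Hochberg adjustment over all tested genes and a threshold of 0.05. The 3 comparisons among dasatinib 16x, dasatinib 1x and drug-free used a fit of 3 classes, with a biological coefficient of variation of 15.3% on 7 residual degrees of freedom, and those with a single DMSO library a fit of 5 groups (7.27%, 5 degrees of freedom). The alternatives were DESeq2 1.42.0, limma-voom (limma 3.58.1), RLE scaling, all genes with a count in place of the filter, a replicate block, only the libraries of the 2 classes, a fit of 5 groups, parental or DMSO alone as reference, and leaving out each library. The procedure was tested on simulated data.

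The 10 genes and the lists were chosen with earlier results of these data known. Of each list the called genes with the smallest p, at most 3, are named with values, and genes at 0 counts are named as such. Some other list genes are given with values beside them. Promoter sequences came from RefSeq (GRCm38.p6) and exon lengths and overlaps from GENCODE. No 2 libraries of a group differed by so little that they looked like 1 library.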

Additional observations from a re-analysis of the deposited data

Results flagged for a closer look

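For 3 of the 10 genes the change from dose step 1x to 16x differed between dasatinib and DMSO, in a test of the difference that was added after the values were seen and that rests on 1 DMSO library per step. The difference in log2 change was 0.95 for Socs1, -0.53 for Socs3 and 0.25 for Stat5b. Of the 3, Socs1 kept its call in all 12 alternatives, Socs3 in 7 and Stat5b in 8.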

How the results depend on the processing

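Socs1, Cish and Pim1 were called higher at dasatinib 16x against drug-free in all 18 alternatives, and Socs1 against dasatinib 1x in all 17. Over all comparisons and alternatives, 1065 values of the 10 genes kept their direction and call, 35 lost the call, 42 gained one and 28 changed sign, none of these called in either setting. The cause of these changes was not tested. For the named list genes 318 values kept direction and call, 64 lost the call and 3 gained one.

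The number of genes called over the whole table moved by over 1.5 times as follows. For dasatinib 1x against drug-free it was 241, and 853 with DESeq2, 150 with limma-voom, 54 with the replicate block, 708 with parental alone as reference, 4149 with the DMSO lines alone, and 17 to 516 when single libraries were left out. For dasatinib 16x against drug-free it was 1980, and 995 with only the libraries of the 2 classes, 3252 with parental alone, 4518 with the DMSO lines alone, and 1005 to 2765 without single libraries. For dasatinib 16x against dasatinib 1x it was 262, and 805 with DESeq2, 408 with the replicate block, 1222 with only the 2 classes, 1669 with the fit of 5 groups, and 41 to 978 without single libraries. For DMSO 1x against parental it was 758, and 110 to 1410 without single libraries. For the difference between the step changes it was 828, and 538 to 1248 without single libraries.

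The replicate letters did not pair the samples by the correlation required: same-letter libraries of dasatinib 16x and 1x correlated in their deviations at 0.0647 (A), 0.0273 (B) and 0.0517 (C), although each correlated best with its own letter. In the replicate block the DMSO libraries formed a block of their own, so the drug-free reference there rested on parental A and B alone. With this block, dasatinib 16x against drug-free had 1330 calls. Osm was no longer among them (0.33, adjusted p = 0.08) and Tnfrsf13b was gained (0.29, adjusted p = 0.0437). With parental alone as reference Tnfrsf13b was at 0.30, and the effect of the letters was not separated from that of the reference. In the same block fit Pim1 gained a call against dasatinib 1x (adjusted p = 0.0194). Among the named list genes, Pim3, Mcl1, Ccnd3, Rag2, Socs7, Stat2 and Csf2ra lost their calls at 16x against drug-free (adjusted p = 0.0529 to 0.151). No paired analysis was possible for the comparisons with a single DMSO library because that library has no letter.

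Signs changed for small log2 changes. At dasatinib 1x against drug-free, the replicate block gave 0.066 for Socs2, -0.013 for Osm and 0.11 for Tnfrsf13b, and parental alone gave 0.043 for Socs2 and 0.12 for Tnfrsf13b. At 16x against drug-free the replicate block gave 0.064 for Socs2 and parental alone 0.043. For 16x against 1x, Socs2 was at -0.0017 with RLE scaling, -0.0017 with DESeq2, -0.0033 with limma-voom, -0.0022 with the replicate block, -0.00026 with only the 2 classes and -5.7e-05 with the fit of 5 groups. Leaving out single libraries gave, at dasatinib 1x against drug-free, -0.0014 to 0.060 for Pim1 and -0.089 to 0.034 for Tnfrsf13b, and for 16x against 1x -0.072 to 0.043 for Socs2. It gave -0.0064 to 0.055 for Pim1 at dasatinib 1x against DMSO 1x and -0.033 to 0.065 for Stat5a at dasatinib 16x against DMSO 16x. For DMSO 1x against parental it gave -0.15 to 0.020 for Socs1 and -0.015 to 0.038 for Pim1, for DMSO 16x against parental -0.0067 to 0.045 for Pim1, and for the difference between the step changes -0.014 to 0.094 for Pim2.

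Each of the 10 genes had at least 350 counts in each library. Each DMSO line had 1 library, so its own spread is unknown. A comparison with that line by itself could not be rerun without its library.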
